A study of Homo sapiens with 38 samples.

Results

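The 8 mitochondrial tRNAs coded on the light strand of the human mitochondrial genome were followed through the small RNA released by DiFi cells, a human colorectal cancer cell line. They are MT-TQ, MT-TA, MT-TN, MT-TC, MT-TY, MT-TS1, MT-TE and MT-TP, the tRNAs for glutamine, alanine, asparagine, cysteine, tyrosine, serine, glutamate and proline. They were taken by name from the mitochondrial tRNA entries of the count table, which holds 22 such entries among 22549 features. The other 14 entries are the tRNAs of the heavy strand. The table covers 38 libraries in 11 groups. RNA of every group was treated with AlkB demethylases, which remove methyl groups that stop reverse transcription on tRNA, before the libraries were made.

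FPLC supermeres and FPLC exomeres (4 libraries each) were isolated by fast protein liquid chromatography from medium of cells grown in 3D in hollow fiber bioreactors. Supermeres, exomeres and small extracellular vesicles (sEV) were pelleted from the same kind of 3D medium by ultracentrifugation (3D UC, 3 libraries each) and from medium of flat 2D cultures (2D UC, 3 libraries each). Ultracentrifugation took sEV at 167000 g for 4 h, exomeres from the supernatant at 167000 g for 16 h and supermeres from what was left at 367000 g for 16 h. Gradient pools 12, 9_10 and 6_7 (4 libraries each) came from 3D medium on a density gradient, and the labels do not say which of them holds vesicles. Exomeres and supermeres are small particles without a membrane, and sEV are vesicles. Per the labels' protocols, 4 pools of 3D medium were each split into 60 mL aliquots for the 3 isolation methods, and 3 pools of 2D medium of 1360 mL were collected after 48 h without serum. Of the media that were pelleted, only that of 2D cultures was concentrated first, so culture and handling cannot be told apart between 2D and 3D groups. The library letters are not tied to pools in the labels, so p-values measure the spread between libraries, which may be technical. All groups come from a single cell line.

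Mitochondrial DNA is transcribed from both strands into long precursors, and the tRNAs that punctuate them are cut out at their 5′ end by the mitochondrial RNase P complex and at their 3′ end by ELAC2. The light-strand precursor carries these 8 tRNAs and a single protein gene, MT-ND6, while the heavy-strand precursor carries the ribosomal RNAs, the other protein genes and the remaining tRNAs. Most of the light-strand transcript outside the tRNAs and MT-ND6 is degraded. The released tRNAs receive a CCA end that is not in the genome and carry amino acids to the mitochondrial ribosome.

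The genes lie on the minus strand of chromosome M of GRCh38 in 5 places. MT-TQ (chrM:4329-4400) overlaps MT-TI of the other strand by 3 bases. MT-TA (chrM:5587-5655), MT-TN (chrM:5657-5729), MT-TC (chrM:5761-5826) and MT-TY (chrM:5826-5891) form a cluster, with 31 bases between MT-TN and MT-TC, where the origin of light-strand replication lies, and with 1 base shared by MT-TC and MT-TY. MT-TS1 (chrM:7446-7514) lies beside MT-CO1, MT-TE (chrM:14674-14742) lies between MT-ND6 and MT-CYB, and MT-TP (chrM:15956-16023) stands beside the control region. The positions in the count table matched those of GENCODE v29, from which the sequences were taken. The sequences of the 6 tRNAs that passed a test in at least 1 comparison are shown 5′ to 3′ as genes, with T for U, without the added CCA, and with the anticodon in capitals.
MT-TE: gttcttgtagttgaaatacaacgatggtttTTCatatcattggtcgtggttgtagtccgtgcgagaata
MT-TQ: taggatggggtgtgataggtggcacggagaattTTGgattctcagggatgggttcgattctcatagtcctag
MT-TC: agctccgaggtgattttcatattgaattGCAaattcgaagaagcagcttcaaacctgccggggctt
MT-TA: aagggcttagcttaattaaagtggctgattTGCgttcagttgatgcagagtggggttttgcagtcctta
MT-TS1: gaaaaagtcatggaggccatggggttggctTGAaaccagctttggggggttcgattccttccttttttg
MT-TP: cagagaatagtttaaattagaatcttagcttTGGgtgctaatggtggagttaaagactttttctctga
Each anticodon sits in a loop closed by 5 base pairs, which was how it was located. The 8 genes are 66 to 73 bases long. They are richer in G than the heavy-strand tRNA genes: G made up a median of 28.0% of their bases, against 15.4% in the 14 heavy-strand genes, and A made up 22.5%, against 36.4%. These shares describe the genes, not the libraries.

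Total counts ranged from 81079 to 16991400 in 37 libraries, and 9 to 25607 of them were mitochondrial tRNA. The remaining library, 3D UC supermere A, held 46 counts in all and no mitochondrial tRNA. It is left out of every level and share below, so that 3D UC supermeres have n = 2, and fits are given with and without it. Levels are given as CPM, counts of a feature per 1e6 counts of its library. All 5 miRNAs chosen as markers of colon epithelium were above 0 in all 37 libraries, with medians of 99.7 to 4679 CPM. Of the 11 markers of blood cells, endothelium, liver, mesenchyme and muscle, 8 had a median of 0 CPM. The exceptions were miR-126-3p, the only endothelium marker (median 1.92, maximum 61.7 CPM), miR-122-5p, the only liver marker (5.77 and 56.0 CPM), and miR-451a of blood cells (0.130 and 8.25 CPM). In such material a smaller amount of a particle and less RNA per particle cannot be told apart.

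The summed level of the 8 tRNAs was lowest in gradient pool 12, and by mean highest in 2D UC exomeres, a rank that rests on library C of that group. Without it the mean of 2D UC exomeres was 371 CPM, against 807.6 CPM with it, and below the means of 3D UC supermeres, FPLC exomeres and 3D UC exomeres. With all libraries the summed level averaged 807.6 CPM in 2D UC exomeres (SD 756, n = 3), 718.5 in 3D UC supermeres (SD 214.7, n = 2), 496 in FPLC exomeres (SD 241, n = 4), 395 in 3D UC exomeres (SD 145.4, n = 3), 355 in gradient pool 9_10 (SD 244, n = 4), 319 in 2D UC sEV (SD 275, n = 3), 280.2 in 2D UC supermeres (SD 195, n = 3) and 243 in 3D UC sEV (SD 139, n = 3). The 3 lowest groups were FPLC supermeres at 62.3 CPM (SD 29.5, n = 4), gradient pool 6_7 at 16.6 (SD 8.95, n = 4) and gradient pool 12 at 4.503 (SD 1.92, n = 4). The ranges of neighbours in this order overlapped, except those of gradient pools 12 and 6_7, where the highest library of pool 12 had 5.86 CPM and the lowest of pool 6_7 had 9.57 CPM. Other neighbours therefore did not differ beyond their spread.

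**Figure D1:**
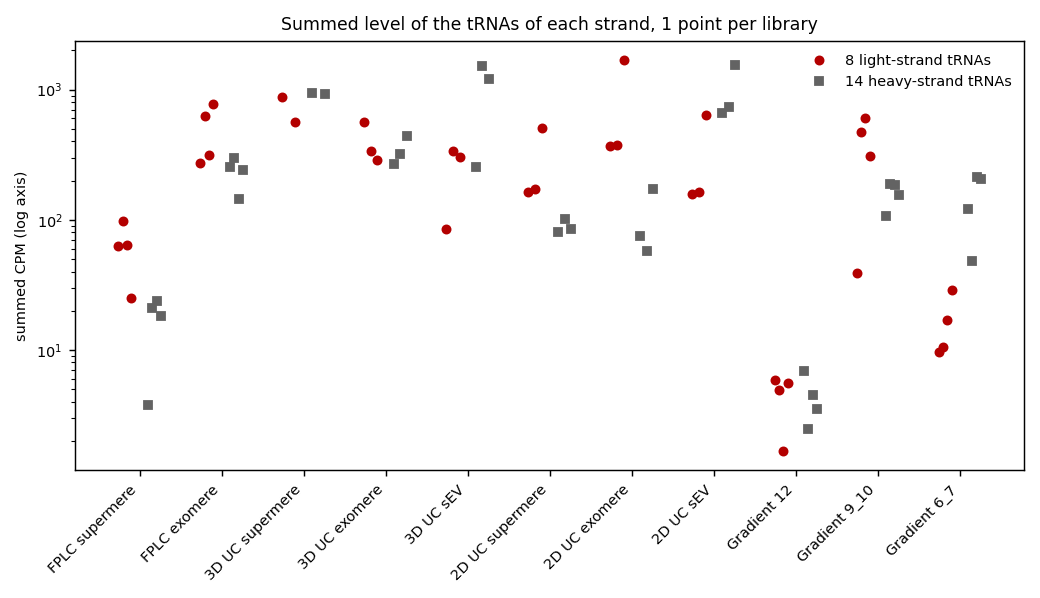
Summed CPM (log axis) of the 8 light-strand and the 14 heavy-strand mitochondrial tRNAs, with 1 point per library and 3D UC supermere A left out. Light-strand points lie above heavy-strand points in the 2D UC exomeres (369.6 to 1681 CPM against 57.1 to 171 CPM) and below them in the 2D UC sEV (158 to 636 CPM against 656 to 1553 CPM).

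In ultracentrifuged material the light-strand share was higher in supermeres and exomeres than in sEV. Light-strand tRNAs made up 62.9%, 66.9% and 85.6% of mitochondrial tRNA counts in 2D UC supermeres, 83.1%, 86.7% and 90.8% in 2D UC exomeres, and 18.3%, 19.4% and 29.1% in 2D UC sEV. The sEV values lie below all values of the other 2 fractions. In 3D UC material they made up 37.95% and 48.1% in supermeres, 39.4%, 51.4% and 67.7% in exomeres, and 18.3%, 20.1% and 24.9% in sEV, again with sEV lowest in every library. FPLC supermeres had 57.8% to 94.3% (mean 76.8% ± 15.4, SD, n = 4) and FPLC exomeres 52.0% to 76.0% (66.1% ± 10.1, SD, n = 4), which overlapped. Gradient pool 9_10 had 26.8%, 66.3%, 71.6% and 76.6%, against 7.38%, 7.48%, 12.3% and 18.02% in gradient pool 6_7. Gradient pool 12 had 27.3% to 66.7%, but from 9 to 18 mitochondrial tRNA counts a library, and the 95% Wilson intervals of its 4 shares reach from 9.75% to 87.9%. These intervals cover counting error only. The summed share carries no test, and counting each tRNA per length instead of per gene moved it by less than 1 SD in all 11 groups.

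**Figure D2:**
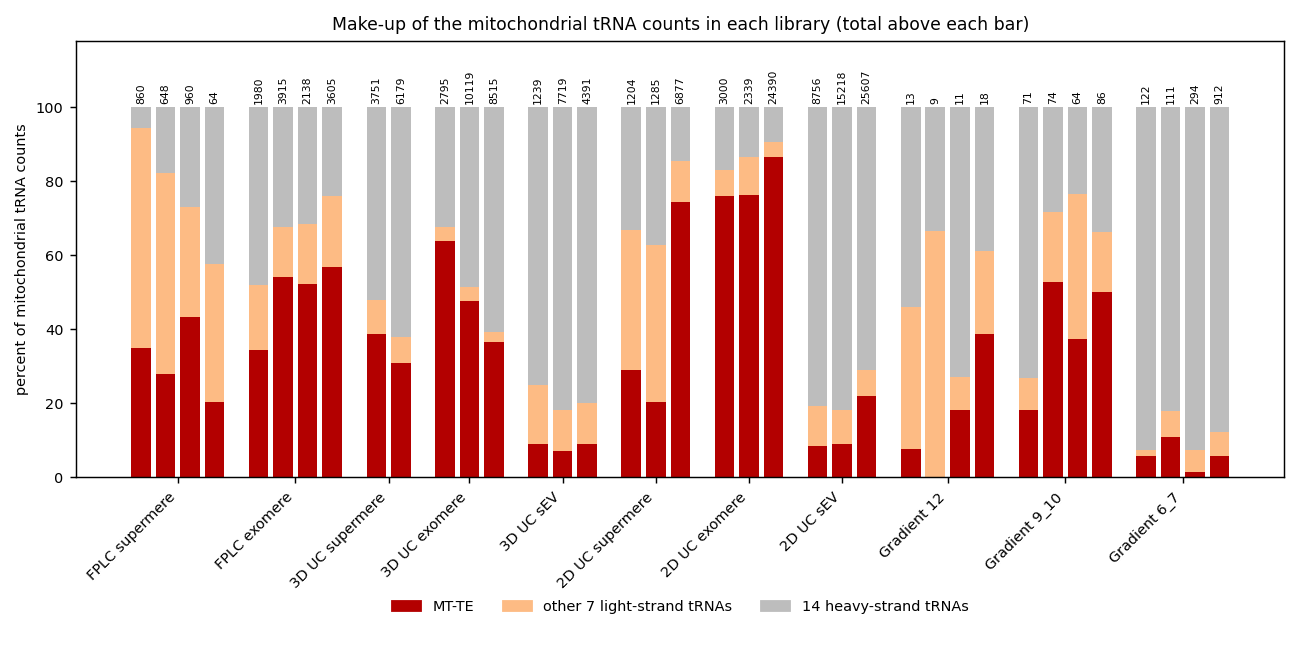
Percent of mitochondrial tRNA counts from MT-TE, from the other 7 light-strand tRNAs and from the 14 heavy-strand tRNAs in each library, with the number of mitochondrial tRNA counts above each bar. MT-TE fills 76.0% to 86.7% of the bars of 2D UC exomeres and 8.51% to 21.9% of those of 2D UC sEV, and gradient pool 12 rests on 9 to 18 counts.

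MT-TE, the glutamate tRNA next to MT-ND6, was the most abundant of the 8 in most libraries. It had the highest level per length of the 8 in 30 of 37 libraries and by mean in 9 of 11 groups, and it made up a median of 66.4% of the light-strand counts. MT-TE stood at 56.0, 70.7 and 439.6 CPM in 2D UC supermeres, 328, 338 and 1605 CPM in 2D UC exomeres, and 69.3, 80.3 and 480.1 CPM in 2D UC sEV. The highest library of each of these 3 groups was the one lettered C, and the ranges of the 3 groups overlap. It stood at 462 and 702 CPM in 3D UC supermeres, 266, 314 and 528 CPM in 3D UC exomeres, and 30.3, 132.6 and 139 CPM in 3D UC sEV, where all 5 values of the non-vesicular fractions lie above the 3 sEV values. FPLC supermeres had 8.79, 23.3, 33.2 and 38.3 CPM, all below the 182, 239, 500.1 and 577 CPM of FPLC exomeres. Gradient pool 12 had 0, 0.976, 1.12 and 3.53 CPM and pool 9_10 had 26.5, 232, 296 and 347 CPM, against 3.10, 6.34, 7.44 and 13.99 CPM in pool 6_7.

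Without MT-TE in either sum, the other 7 made up 50.1% of the remaining mitochondrial tRNA counts in 2D UC supermeres and 34.7% in 2D UC exomeres, against 10.4% in 2D UC sEV. In 3D UC material the same value was 12.6% in supermeres and 7.41% in exomeres, against 13.8% in sEV. Only MT-TE was taken out, and no heavy-strand tRNA was. The heavy-strand sum of 3D UC supermeres B and C (940.3 and 926.6 CPM) was mostly MT-TS2, whose levels are given below. The low value of 3D UC supermeres is therefore set largely by that tRNA. The share in 2D material differed beside a lower level of the heavy strand: its sum averaged 89.0 CPM in 2D UC supermeres and 101.1 CPM in 2D UC exomeres, against 980.4 CPM in 2D UC sEV. The mean level of the other 7 light-strand tRNAs was not higher than in sEV: it was 91.4 CPM in 2D UC supermeres (65.9 to 117) and 50.6 CPM in 2D UC exomeres (31.6 to 75.3), against 109.5 CPM in 2D UC sEV (83.2 to 156). These sums were chosen after the values of MT-TE were seen, and no test was made of them.

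MT-TQ, the glutamine tRNA, came after MT-TE in mean level per length in sEV of both cultures, and also in 2D UC exomeres, 2D UC supermeres and gradient pool 6_7. MT-TQ had 24.5, 32.0 and 32.3 CPM in 2D UC supermeres, 12.2, 12.5 and 24.1 CPM in 2D UC exomeres, and 46.0, 50.9 and 69.3 CPM in 2D UC sEV. In 3D UC material it had 2.90 and 11.8 CPM in supermeres, 2.61, 4.597 and 5.92 CPM in exomeres, and 31.7, 107 and 119.6 CPM in sEV. The sEV values lie above those of the other fractions in both cultures. FPLC supermeres had 0.309 to 2.03 CPM and FPLC exomeres 7.09 to 44.3 CPM, without overlap. MT-TN, the asparagine tRNA, ran beside it in 2D material, with 6.01 to 19.0 CPM in supermeres, 7.56 to 8.81 CPM in exomeres and 22.0 to 47.9 CPM in sEV. MT-TN was at 0 in 2 of 3 libraries of 3D UC exomeres and at 8.28 CPM in the remaining library, against 4.10, 18.7 and 25.3 CPM in 3D UC sEV.

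MT-TC, the cysteine tRNA, was the only member with a higher mean level in FPLC supermeres than in FPLC exomeres: 12.2, 20.4, 34.7 and 58.2 CPM in supermeres, against 2.39, 19.8, 31.1 and 39.6 CPM in exomeres. It was also the member with the highest mean level per length in FPLC supermeres. By mean CPM the other 7 were lower in FPLC supermeres than in FPLC exomeres, and their ranges in supermeres lay below those in exomeres except for MT-TY and MT-TS1. MT-TA, the alanine tRNA, had 0, 2.67, 3.16 and 3.29 CPM in FPLC supermeres, against 12.7, 24.3, 25.1 and 62.4 CPM in FPLC exomeres. In 3D UC supermeres MT-TC had 17.4 and 57.9 CPM and MT-TA had 42.3 and 50.2 CPM. The same fraction of 2D culture had 2.62, 4.28 and 11.5 CPM of MT-TC and 8.42, 13.04 and 13.3 CPM of MT-TA, below the 3D values for both. MT-TY, the tyrosine tRNA that shares 1 base with MT-TC, stayed at or under 29.8 CPM in all 37 libraries and was at 0 in 12 of them.

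MT-TS1, the serine tRNA that reads UCN codons, was low in the ultracentrifuged 2D fractions, with 0, 0.855 and 2.58 CPM in supermeres, 0.148, 2.66 and 4.23 CPM in exomeres and 0.651, 1.11 and 3.00 CPM in sEV. 3D UC supermeres had 9.67 and 29.9 CPM, above all of these. It was the most abundant member per length in gradient pool 12 by mean, but from 13 counts in 4 libraries. Gradient pool 9_10 had 0, 16.2, 89.0 and 296 CPM, from 0 to 24 counts a library, against 0, 0, 0.529 and 0.776 CPM in pool 6_7.

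MT-TP, the proline tRNA beside the control region, was nearly missing from 3D UC supermeres. There 1 count was seen in 6209577 counts of the group, with the 46 counts of 3D UC supermere A included. Libraries B and C had 0 and 0.242 CPM, against 3.28, 17.996 and 22.7 CPM in 3D UC sEV and 9.19, 24.6 and 37.0 CPM in 2D UC supermeres. 3D UC exomeres had 2.09, 3.75 and 6.80 CPM. FPLC supermeres were at 0 to 0.463 CPM, against 4.08 to 24.4 CPM in FPLC exomeres.

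**Figure D3:**
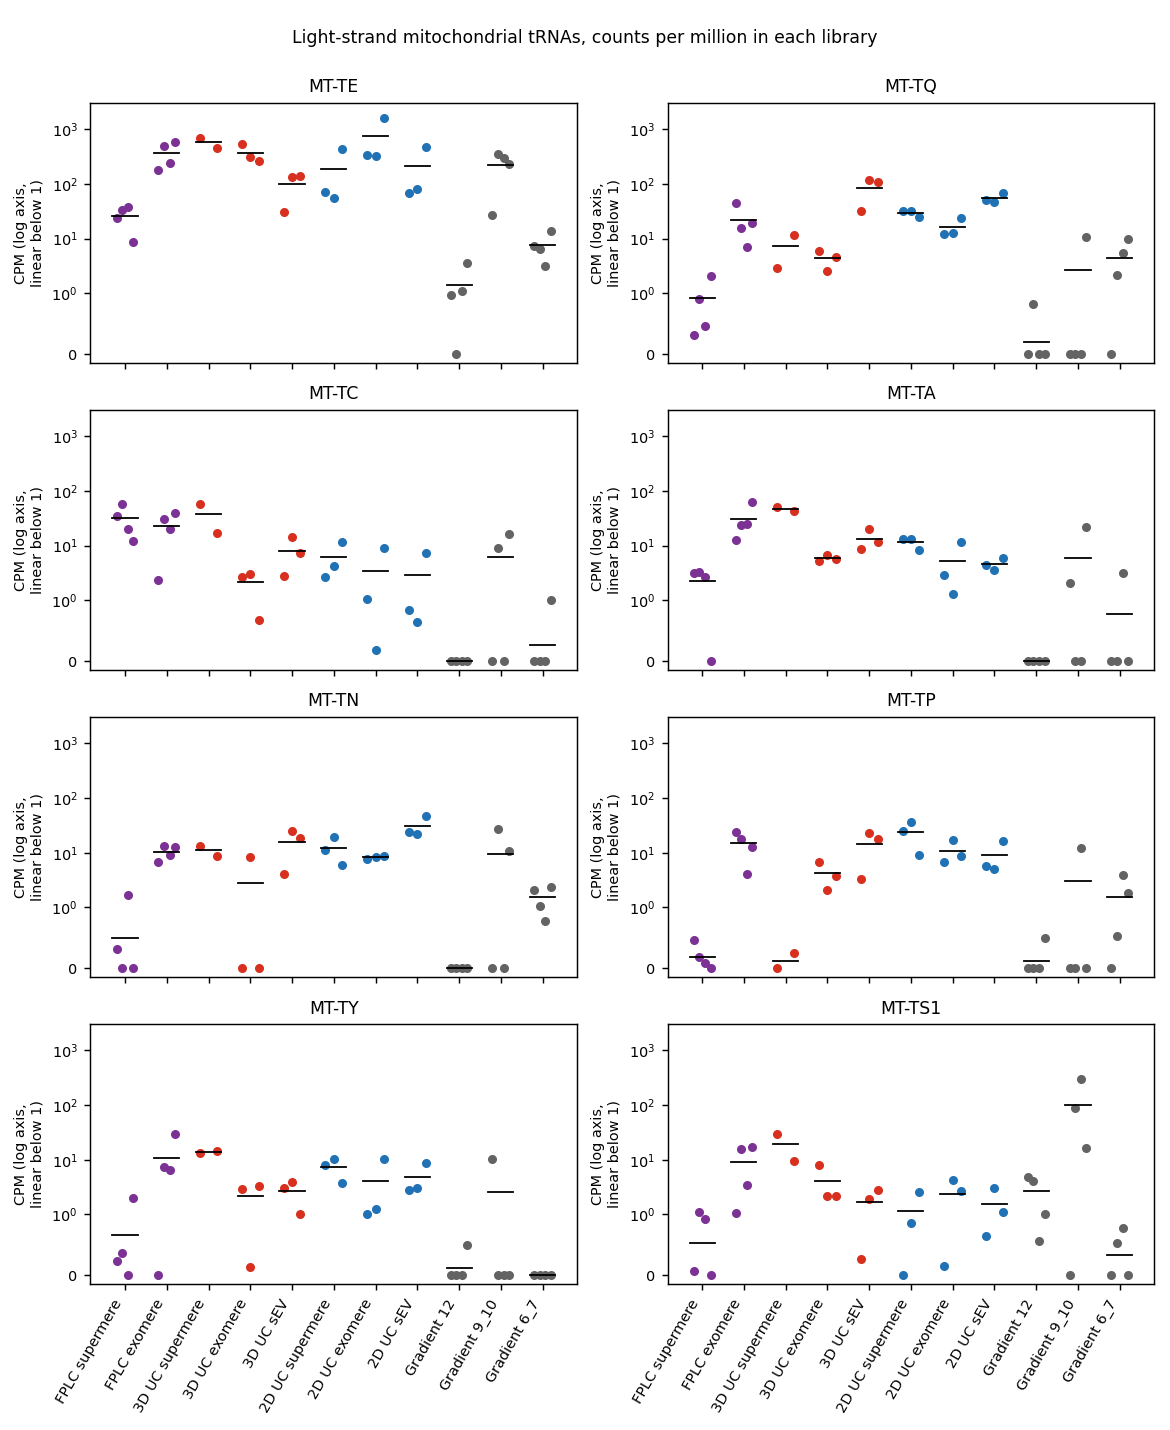
CPM of each light-strand mitochondrial tRNA in each library (log axis, linear below 1), with bars at the group mean, purple for FPLC, red for 3D UC, blue for 2D UC and grey for the gradient pools. MT-TC overlaps between FPLC supermeres (12.2 to 58.2 CPM) and FPLC exomeres (2.39 to 39.6 CPM), and MT-TP sits at 0 and 0.242 CPM in 3D UC supermeres.

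Differences were tested with edgeR's quasi-likelihood test over all 7009 features that passed a filter on low counts, among them all 8 members and 13 of the 14 heavy-strand tRNAs, and adjusted p-values are Benjamini-Hochberg values over these features. Log2 fold changes are on the TMM scale, whose factors ran from 0.0553 to 13.6, so they can differ from ratios of CPM. Over 12 comparisons, 9 of 96 tests of a member passed an adjusted p of 0.05, 6 higher and 3 lower, and 6 comparisons had none. This is 9.38% of the tests of members, close to the 7.84% of tests that passed over all features (6595 of 84108). Of the heavy-strand tRNAs, 45 of 156 such tests passed.

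In 2D culture no member passed in exomeres against sEV (0 of 8, 2 at an unadjusted p below 0.05, 0 with DESeq2), where 8.57% of all features passed, nor in supermeres against sEV (0 of 8, 0 at an unadjusted p below 0.05, 0 with DESeq2), where 10.4% passed. MT-TQ and MT-TN were closest in 2D UC exomeres, with log2 fold changes of -3.01 (SE 1.07, adjusted p = 0.0564) and -3.29 (SE 1.20, adjusted p = 0.0653) in edgeR's test. The median log2 fold change of the 8 was -0.93 in 2D UC exomeres, beside 0.10 for all features, and turned to 0.24 when library totals replaced the TMM scale, beside 1.78 for all features. In 2D UC supermeres it was 0.18, beside -0.01. Without the 3 libraries C of 2D culture MT-TQ passed in exomeres (log2 fold change -4.07, adjusted p = 0.0491 in edgeR's test, range over its 13 alternatives 0.00956 to 0.48), where 5.37% of all features passed. Without 2D UC exomere C alone MT-TQ and MT-TC passed as lower there, beside 5.67% of all features. Without 2D UC supermere C MT-TE passed as lower in supermeres (log2 fold change -3.21), beside 7.46% of all features, while with that library its log2 fold change was 0.50. Of the heavy-strand tRNAs 5 of 13 fell in 2D UC exomeres and 6 of 13 in 2D UC supermeres against sEV, and none rose.

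In 3D culture MT-TQ fell in exomeres against sEV, with a log2 fold change of -4.20 (SE 1.14, adjusted p = 0.00466 in edgeR's test). It was the only member of 8 to pass there, where 10.1% of all features passed, and the median of the 8 was -1.32, beside -0.43 for all features. This call held in 10 of 12 alternatives. Under RLE scaling without 3D UC supermere A the log2 fold change was -2.59 and did not pass, and without 3D UC exomere B its adjusted p in edgeR's test was 0.0514 (range over alternatives, DESeq2 included, 0.00201 to 0.216). In each of these settings 1 other member passed instead of MT-TQ, beside 2.73% and 4.64% of all features. In 3D UC supermeres against sEV 2 of 8 passed, where 7.78% of all features did: MT-TE rose, with a log2 fold change of 2.80 (SE 0.96, adjusted p = 0.0442), and MT-TP fell, with -5.86 (SE 1.92, adjusted p = 0.0331) in edgeR's test. All features had a median of -3.90 there and the 8 members 2.34. MT-TP rests on 1 count in supermeres against 158 in sEV, a ratio of CPM of 0.0109 with an exact 95% interval of 0.000274 to 0.0616 that covers counting error only. Without the near-empty 3D UC supermere A both calls missed the threshold, with adjusted p = 0.0517 for MT-TE and 0.0512 for MT-TP in edgeR's test. Over their 12 alternatives the adjusted p in these tests ran from 6.42e-08 to 0.365 for MT-TE, which passed in 2, and from 0.0363 to 0.726 for MT-TP, which passed in 3. The libraries without which MT-TE missed the threshold were 3D UC sEV A, B and C and supermeres A, B and C, each in turn. For MT-TP they were 3D UC sEV B and C and supermeres A, B and C.

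Between cultures, 3D UC supermeres held more MT-TS1, MT-TA and MT-TC than 2D UC supermeres. Their log2 fold changes were 4.85 for MT-TS1 (SE 1.38, adjusted p = 0.0192), 4.00 for MT-TA (SE 1.21, adjusted p = 0.0339) and 3.51 for MT-TC (SE 1.11, adjusted p = 0.0495) in edgeR's test. These 3 of 8 stand against 3.2% of all features, whose median log2 fold change was -4.69, while that of the 8 was 2.77. On library totals the median of the 8 was 1.26, beside -5.84 for all features, and the 3 values were lower (4.03, 1.99 and 2.60) and did not pass, while MT-TP passed as lower. Without 3D UC supermere A, MT-TS1 passed (adjusted p = 0.0365) while MT-TA (0.0619) and MT-TC (0.09) did not in edgeR's test, and over 13 alternatives each the calls held in 7, 5 and 6. The adjusted p in these alternatives ran from 0.00199 to 0.31 for MT-TS1, 0.00896 to 0.486 for MT-TA and 0.000996 to 0.428 for MT-TC. Each of the 3 also missed the threshold without 2D UC supermere A, 2D UC supermere B, 3D UC supermere B or 3D UC supermere C. In sEV (0 of 8, 2 at an unadjusted p below 0.05, 0 with DESeq2) and exomeres (0 of 8, 2 at an unadjusted p below 0.05, 0 with DESeq2) no member passed between 3D and 2D in edgeR's test, where 2.95% and 8.59% of all features did. The direction in exomeres depends on the scale: the median log2 fold change of the 8 was 1.24 on the TMM scale, beside -1.26 for all features, and -1.01 on library totals, beside -4.02, with 6 of 8 members turned to the other sign. On the TMM scale, MT-TA, MT-TC and MT-TE passed as higher in 3D UC exomeres without the 3 libraries C of 2D culture, where 4.26% of all features passed. In CPM, MT-TE in 3D UC exomeres (266, 314 and 528) overlaps the 338 and 328 of 2D UC exomeres A and B. MT-TA and MT-TC passed without 2D UC exomere C alone, beside 4.32% of all features. Without 3D UC exomere B, MT-TN passed as lower (log2 fold change -7.09), beside 3.68% of all features, while with that library it was at 1.34.

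Between FPLC fractions MT-TC rose in supermeres against exomeres, with a log2 fold change of 4.05 (SE 0.94, adjusted p = 0.000763 in edgeR's test), as the only member of 8, where 9.03% of all features passed. All features had a median of -1.80 and the 8 members -1.001. On library totals MT-TC was at 0.44 (adjusted p = 0.789 in edgeR's test, range over its 14 alternatives 5.64e-05 to 0.789) and the other 7 fell and passed, where 57.7% of all features passed, the median of the 8 being -4.06 beside -4.12 for all features. Both scales place MT-TC above the other members in this comparison. Its call held in 13 of 14 alternatives. In FPLC against 3D UC no member passed in exomeres (0 of 8, 1 at an unadjusted p below 0.05, 0 with DESeq2), where 9.4% of all features passed. No member passed in supermeres either (0 of 8), where 0.228% of all features passed the adjusted threshold in edgeR's test. In supermeres 6 members were at an unadjusted p below 0.05, and 1 passed with DESeq2, MT-TQ as lower. No share of all features is given for these 2 counts, so they are not read as results about the members. Without 3D UC exomere B, MT-TN passed in FPLC exomeres against 3D UC exomeres, beside 2.55% of all features.

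Between gradient pools MT-TS1 rose in pool 9_10 against pool 6_7, with a log2 fold change of 5.46 (SE 1.40, adjusted p = 0.00377 in edgeR's test). It was the only member of 8 to pass, where 14% of all features did and where the median was 3.35 for all features and 0.99 for the 8. The ratio of its CPM, from 37 counts against 2, was 170 with an exact 95% interval of 43.8 to 1450 that covers counting error only and not the spread between libraries. Without library C of pool 9_10, which holds 24 of the 37 counts, the ratio was 65.8, the log2 fold change was 3.41 and the adjusted p in edgeR's test 0.102 (range over alternatives 5.41e-05 to 0.102). Without library D of the same pool 4 members passed, beside 26.9% of all features. MT-TQ fell in pool 12 against pool 6_7, with a log2 fold change of -4.25 (SE 1.40, adjusted p = 0.0274 in edgeR's test), the only member of 8 beside 9.93% of all features, from 1 count against 49, a ratio of 0.0271 with an exact 95% interval, for counting error only, of 0.000673 to 0.158. The call held in 5 of 13 alternatives (adjusted p in edgeR's or DESeq2's test 0.017 to 0.637) and was lost without pool 12 library A, C or D or pool 6_7 library D. Pool 12 had 0 counts of MT-TN, against 14 in pool 6_7, so that MT-TN was at least 3.51-fold lower with the floor of 3 counts set over the group. This bound takes the 14 counts as exact and does not cover the spread between libraries. MT-TN did not pass there in edgeR's test (adjusted p = 0.101).

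**Figure D4:**
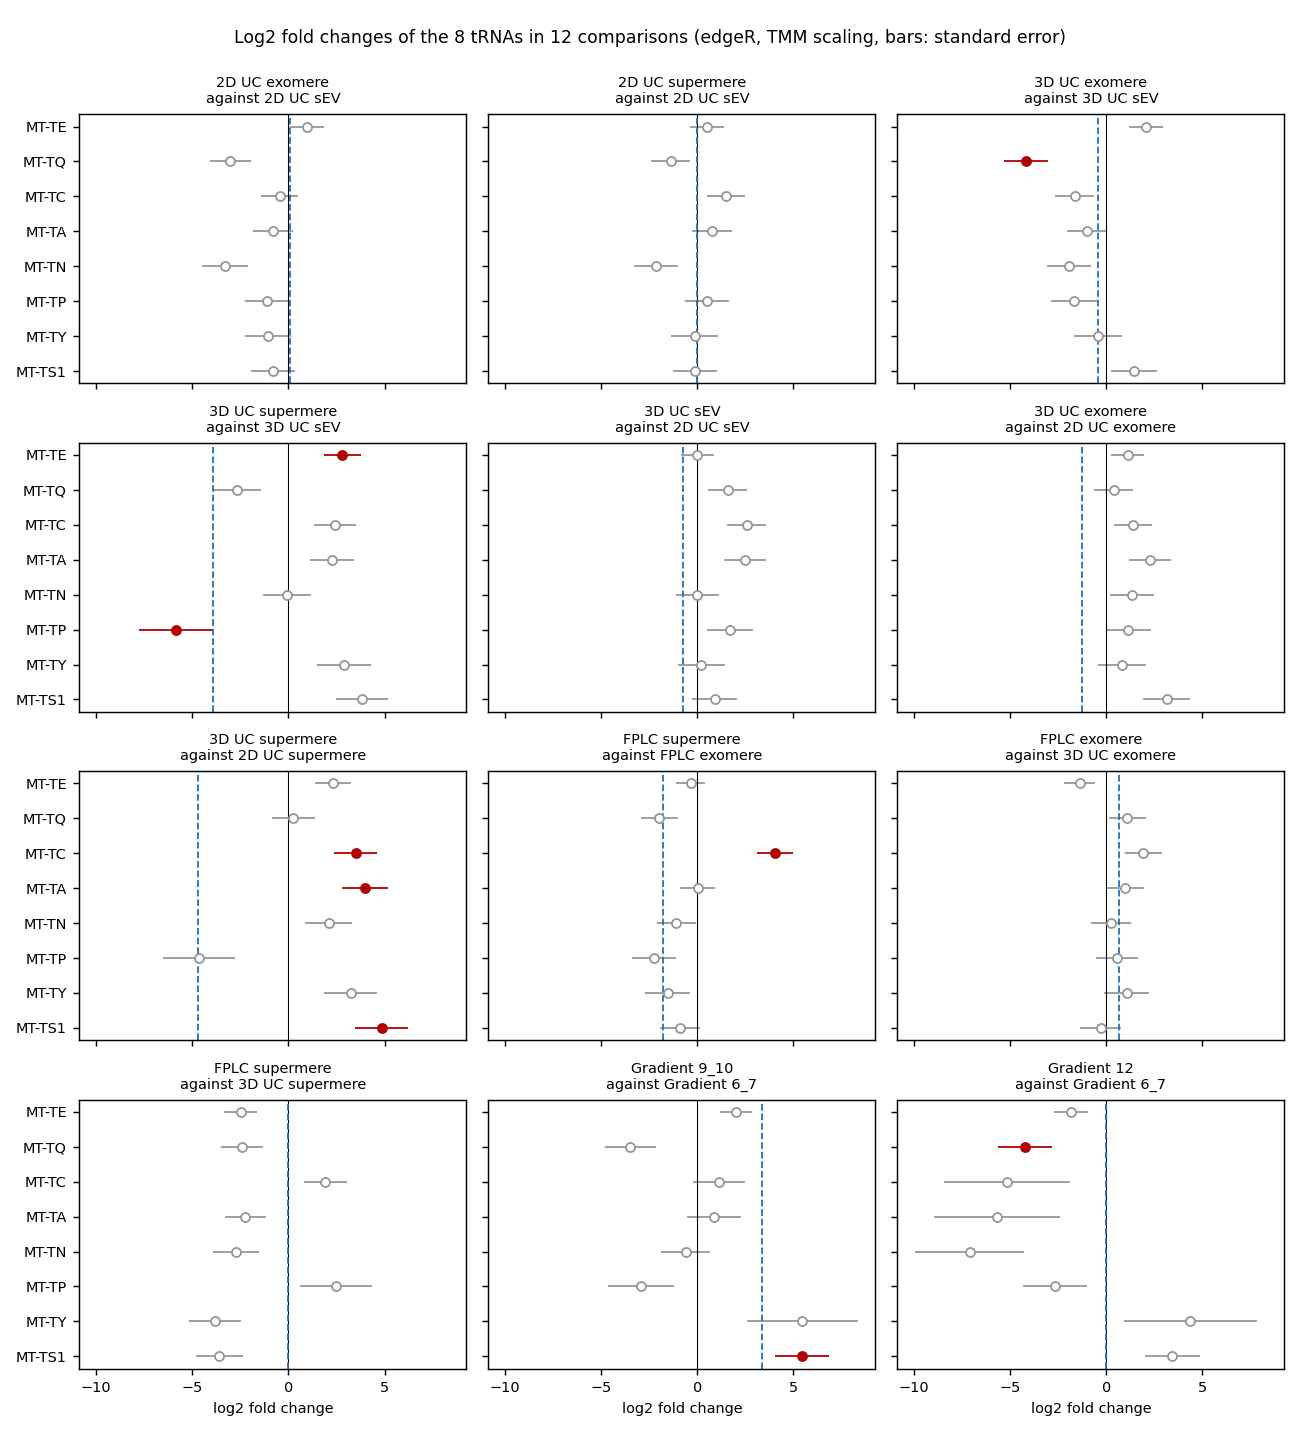
Log2 fold changes of the 8 tRNAs with standard errors in 12 comparisons, on the TMM scale, with filled red points for an adjusted p below 0.05 and a dashed line at the median of all features. The filled points are MT-TQ, MT-TE, MT-TP, MT-TC, MT-TA and MT-TS1 in 6 comparisons, and MT-TC of FPLC supermeres against FPLC exomeres stands at 4.05 on this scale but at 0.44 on library totals.

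Whether the effect of a fraction differed between cultures or methods was tested for 3 differences (exomere over sEV and supermere over sEV, each in 3D against 2D, and supermere over exomere in FPLC against 3D UC). No member passed in any of them. The smallest adjusted p was 0.146, for MT-TP in supermeres over sEV between 3D and 2D (log2 difference -6.35, SE 2.20) and for MT-TY in supermeres over exomeres between FPLC and 3D UC (-4.88, SE 1.82), in edgeR's test, where 1.66% and 1.97% of all features passed, and 1.81% did in exomeres over sEV. The number of members at an unadjusted p below 0.05 was 0 for exomere over sEV, 2 for supermere over sEV and 4 for supermere over exomere. No share of all features at that threshold is given, so these counts are not read as results about the members. DESeq2 was not run on these differences.

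A second set of tests used the share of each tRNA among the mitochondrial tRNA counts of its library, which does not depend on the scaling between libraries. Exact two-sided permutation tests were adjusted over the 22 mitochondrial tRNAs. Across the 3 fractions of 3D UC, 3 of 8 members differed, where 27.3% of the 22 did. MT-TE made up 31.0% and 38.8% in supermeres, 36.6%, 47.6% and 63.9% in exomeres and 7.13%, 8.96% and 9.13% in sEV (adjusted p = 0.0393 in the exact permutation test). MT-TC made up 1.17% and 3.20% in supermeres, 0.094% to 0.464% in exomeres and 0.478% to 0.807% in sEV (adjusted p = 0.0314 in the exact permutation test). MT-TP made up 0% and 0.0162% in supermeres, 0.316% to 0.823% in exomeres and 0.969% to 1.22% in sEV (adjusted p = 0.0314 in the exact permutation test). Leaving out any of the 8 libraries ended all 3 calls. Without 3D UC supermere B or C only exomeres and sEV remain, and 3 against 3 cannot go below a p of 0.1.

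Across the 3 fractions of 2D UC, 0 of 8 members and 0% of the 22 passed. MT-TE and MT-TA had the smallest adjusted p among members, both 0.0629, at an unadjusted 0.00714 for MT-TE in the exact permutation test, and 4 members had an unadjusted p below 0.05. Without 2D UC supermere C 5 members passed, MT-TA, MT-TE, MT-TN, MT-TP and MT-TQ, beside 40.9% of the 22, and without 2D UC supermere B MT-TE passed, beside 9.09% of the 22. In 2D UC supermere C MT-TE made up 74.4% of mitochondrial tRNA, against 29.2% and 20.4% in the other libraries of that group. Between 3D and 2D culture, with fractions as strata, 0 of 8 passed beside 18.2% of the 22, with 0 members at an unadjusted p below 0.05. Without 2D UC supermere C 4 of 8 members passed (MT-TA, MT-TE, MT-TN and MT-TQ), the same share as the 11 of all 22. Without 2D UC supermere A 2 of 8 passed beside 9 of 22, and without 2D UC supermere B 1 of 8 beside 7 of 22, both below the share of all. Between FPLC supermeres and FPLC exomeres 0 of 8 passed (0% of the 22), with 1 member at an unadjusted p below 0.05: MT-TC made up 23.1%, 49.2% and 52.3% in supermeres, against 0.455%, 3.37%, 3.91% and 4.30% in exomeres (p = 0.0286 in the exact permutation test, the smallest that 35 assignments allow, adjusted p = 0.21). FPLC supermere D, with 64 mitochondrial tRNA counts, was under the minimum of 100 and is not in this test. Between FPLC and 3D UC, with fractions as strata, 0 of 8 passed beside 9.09% of the 22, with 0 members at an unadjusted p below 0.05. With the minimum lowered to 20 counts, gradient pool 9_10 could be set against pool 6_7 (4 against 4 libraries, 70 assignments). There 0 of 8 members and 0 of 22 passed in the exact permutation test, whose smallest p was 0.0286. With so few assignments this is the smallest p possible, as it is between the FPLC fractions. After adjustment over the 22 it passes only if most of them reach it. The 0 of 8 in these tests therefore does not show that the shares were alike.

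Among the heavy-strand tRNAs, MT-TH, the histidine tRNA, and MT-TS2, the other serine tRNA, had the highest mean levels, 91.5 and 97.8 CPM over 37 libraries and 96.1 and 131 CPM with the 11 groups weighted equally. Both means are carried by few groups, and the medians of their group means were 30.0 and 39.2 CPM. MT-TH was highest in sEV: it had 0.859 to 7.05 CPM in 2D UC supermeres, 8.08 to 18.1 CPM in 2D UC exomeres and 338 to 780.2 CPM in 2D UC sEV, and it fell in both fractions (log2 fold changes -8.37, SE 1.26, adjusted p = 2.31e-09, and -6.60, SE 1.16, adjusted p = 6.04e-07, in edgeR's test). MT-TS2 was highest in 3D UC supermeres: it had 876.8 and 890.1 CPM in 3D UC supermeres, 133.4 to 259 CPM in 3D UC exomeres and 37.4 to 140 CPM in 3D UC sEV, and its level rose in that fraction over sEV (3.43 on the log2 scale, SE 0.99, adjusted p = 0.011 in edgeR's test). Of the 13 heavy-strand tRNAs 4 fell and 1 rose in 3D UC supermeres, and 4 fell in 3D UC exomeres, against 3D UC sEV. Nuclear-coded tRNA differed between the fractions too: nuclear tRNAs for the same 8 amino acids (18 entries) summed to 794 to 1083 CPM in 2D UC supermeres, 929 to 2776 CPM in 2D UC exomeres and 17839 to 25984 CPM in 2D UC sEV. They summed to 28246 to 62146 CPM in gradient pool 9_10, with light-strand shares of 26.8% to 76.6%, against 25519 to 89901 CPM in gradient pool 6_7, with 7.38% to 18.02%. FPLC exomere A had 33812 CPM at a light-strand share of 52.0%, and the other 3 FPLC exomere libraries had 1460 to 3145 CPM at 67.8% to 76.0%. Their part in the light-strand share was not tested.

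As a description over 11 group means with shared libraries, the features whose log2(CPM + 1) followed the summed light-strand level most closely, among 941 outside mitochondrial tRNA, were KCNQ1OT1, a long noncoding RNA (Pearson r = 0.851), RNY1, a Y RNA (0.847), RNU7-1, the U7 snRNA (0.836), and 2 unnamed Y_RNA copies (0.816 and 0.815). Within mitochondrial tRNA and over 37 libraries, MT-TE was closest to MT-TS2 of the other strand (r = 0.85), MT-TQ and MT-TP to each other (0.77), MT-TN to MT-TQ (0.741), MT-TC to MT-TA (0.66), MT-TA to MT-TS2 (0.767) and MT-TY to MT-TA (0.709), while MT-TS1 had no value above 0.467, with MT-TE. The mitochondrial ribosomal RNAs and the RNA parts of RNase MRP and nuclear RNase P gave 0 matching entries in the table and were not analysed here.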

How the data were processed

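Small RNA of 38 libraries was sequenced as paired ends after AlkB treatment with the NEXTFlex Small RNA kit, per the labels' protocols. The authors deposited 1 table of expected counts, of which 6.71% of values are not whole (tolerance 1e-06). Cutadapt 4.5, FastQC 0.12.1, Bowtie 1.3.1 and GRCh38.p13 are named in the submitters' processing notes, without their roles, and the counting tool and its use of strand are not given in the sources used here. Without stated strand, reads of MT-TQ and MT-TI in their 3 shared bases cannot be assigned with certainty. MT-TC and MT-TY lie on the same strand, so strand would not settle their shared base. Whether reads of the opposite strand over the light-strand genes were counted as these tRNAs cannot be told, and this bears on every light-strand share.

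CPM were computed from the deposited expected counts and library totals. Rounded counts were fitted over all 11 groups with edgeR 4.0.16 (limma 3.58.1, R 4.3.3; TMM, filterByExpr with a minimum count of 10), with DESeq2 1.42.0 as an alternative. 3D UC supermere A stayed in the fit. Shares were tested by exact permutation in libraries with at least 100 mitochondrial tRNA counts, which among the gradient pools only pool 6_7 reaches, and pools 9_10 and 6_7 were tested at a minimum of 20. In simulated counts for 2D UC supermeres against 2D UC sEV over 7009 features, the edgeR fit recovered 0% of 4-fold, 14.9% of 16-fold and 60.6% of 64-fold changes, with 1 false call. All 8 members are named, with the 2 heavy-strand tRNAs of highest mean CPM and the 5 features most like the summed level, among those with a mean of at least 10 CPM. The members and lists were chosen with earlier results of these data known.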

Additional observations from a re-analysis of the deposited data

Results flagged for a closer look

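In 9 of 46 sets of 4 libraries, a single library stood apart from the other libraries of its group by Dixon's test at the 95% level. The rate of about 1 set in 20 expected by chance does not hold for counts near 0. Where the other 3 libraries are at 0, the remaining library is marked whatever its value. The 9 marks therefore do not show an excess. All 9 lie in the gradient pools and rest on few counts. In pool 12, MT-TP and MT-TY were each at 0.504 CPM in library D and MT-TQ was at 0.821 CPM in library B, from 1 count each, with the other 3 libraries at 0. In pool 9_10, MT-TA was at 21.5 CPM in library D, where the others had 0, 0 and 2.04 CPM. In the same pool MT-TQ was at 10.8 CPM in library D, MT-TP at 12.3 CPM in library C and MT-TY at 10.2 CPM in library A, with the others at 0. In pool 6_7, MT-TA was at 3.10 CPM in library C and MT-TC at 1.04 CPM in library D, from 4 counts each, with the others at 0.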

How the results depend on the processing

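The number of members called in the edgeR test kept within 1.5 times of its value in 103 of the alternatives tried and moved in 53. Counts of 0 that stayed at 0 are among those kept, and 6 of the 12 comparisons had no call in the main fit. Only counts were compared, so a different member may pass at the same count. None of the 9 called differences turned to the other sign under the alternatives run. Signs of other members did turn: 21 of 96 on library totals, 19 of 96 under RLE scaling, 7 of 96 with DESeq2, 7 of 96 without a filter, 3 of 96 with the replicate block, 6 of 72 with 2 groups alone, 3 of 40 without the 3 libraries C and 44 of 640 with 1 library left out. In 3 of these the turned value passed: MT-TA in FPLC supermeres against FPLC exomeres on library totals (-3.69), MT-TE in 2D UC supermeres against sEV without 2D UC supermere C (-3.21) and MT-TN in 3D against 2D exomeres without 3D UC exomere B (-7.09). The cause of these moves was not tested, beyond fewer libraries where libraries were left out. With library totals in place of TMM, the number of members called was 0 in 3D UC supermeres against sEV, beside 5.59% of all features. It was 7 in FPLC supermeres against FPLC exomeres, where the share of all features is given above. The number also moved in 3D against 2D supermeres, FPLC against 3D UC supermeres and gradient pool 9_10 against 6_7. Under RLE scaling, leaving the near-empty library out, it was 5 in 3D UC supermeres against sEV, beside 3.35% of all features. The number also moved in FPLC against 3D UC supermeres and in pool 9_10 against 6_7. Without a filter on low counts it was 0 in 3D UC supermeres against sEV, beside 1.27% of all features. The number also moved in 3D against 2D supermeres and in pools 9_10 and 12 against 6_7. With DESeq2 it was 1 in 3D UC supermeres against sEV, beside 4.75% of all features. The number also moved in FPLC against 3D UC supermeres and in pools 9_10 and 12 against 6_7. With the 2 groups fitted alone it was 2 of 8 in 2D UC exomeres against sEV and 1 of 8 in 2D UC supermeres against sEV. There 9.67% and 12.6% of all features passed. In 3D UC exomeres against sEV it was 2 of the 7 members tested, beside 39.8% of all features. In 3D UC supermeres against sEV it was 5 of 7, beside 54.8%. The number also moved in 3D against 2D sEV, 3D against 2D supermeres and FPLC against 3D UC supermeres. Without the 3 libraries C of 2D culture, a choice made after seeing the data, it was 1 in 2D UC exomeres against sEV, beside 5.37% of all features. It was 3 in 3D against 2D exomeres, where the share of all features is given above. Where a move is named with no share of all features beside it, it is not read as a result about the members.

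The library letters were not shown to pair the libraries: correlations of same-letter deviations ran from -0.0946 to 0.0861. With the letter as a replicate block, 1 member was called in 2D UC exomeres against sEV, beside 8.6% of all features. In 3D UC supermeres against sEV 1 was called, beside 7.5%. The number called in the same fit also moved in 3D against 2D exomeres and in pool 12 against 6_7. There it is not read as a result about the members.

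Leaving out 1 library at a time gave 0 to 2 members in 2D UC exomeres against sEV, with 2 beside 5.67% of all features. It gave 0 to 1 in 2D UC supermeres against sEV, with 1 beside 7.46%. In 3D UC supermeres against sEV it gave 0 to 1, with 1 beside 4.37%. It gave 0 to 2 in 3D against 2D exomeres, 0 to 1 in FPLC against 3D UC exomeres and 0 to 4 in pool 9_10 against 6_7. For these the share of all features beside the highest count is given above. The number also moved in 3D against 2D supermeres and in pool 12 against 6_7, where it is not read as a result about the members. In the share tests leaving out 1 library gave 0 to 5 across the 2D UC fractions, with 5 beside 40.9% of the 22 mitochondrial tRNAs. It gave 0 across the 3D UC fractions, beside 0% of the 22, and 0 to 4 between 3D and 2D, with 4 beside 50%. With all counts of a library as denominator, 1 of 8 members differed across the 2D UC fractions and 2 of 8 between FPLC and 3D UC, beside 5 of 22 mitochondrial tRNAs (22.7%) in each, and 0 across the 3D UC fractions.

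Without MT-TE, the mean light-strand share was 50.1% in 2D UC supermeres, 34.7% in 2D UC exomeres and 10.4% in 2D UC sEV. In 3D UC material it was 12.6% in supermeres, 7.41% in exomeres and 13.8% in sEV, with the heavy-strand counts of 3D UC supermeres mostly from MT-TS2. The share without MT-TE was highest in FPLC supermeres, at 66.5%, and 33.7% in FPLC exomeres. The gradient pools had 38.95% in pool 12, 36.4% in pool 9_10 and 5.70% in pool 6_7. Depth limits the gradient pools most, where pool 12 held 9 to 18 mitochondrial tRNA counts a library.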
